A study of Arabidopsis thaliana with 27 samples.

Results

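Among the nuclear genes of Arabidopsis, 32 had transcripts that were raised after 8 h at 38 °C and lay close to the control after 24 h. These genes were chosen by group means of log2 signal on ATH1 arrays, from probe sets that the platform annotation gives 1 nuclear gene and that lie outside the glycerolipid genes of the study. The rule asked for a highest group mean of at least 8, a difference between both controls under 0.5, a rise of at least 1 at Heat08 hr and a change under 0.5 in either direction at Heat24 hr. Of 22746 probe sets on the arrays, 13316 could be taken and 4577 of them passed the limits on signal and controls. In that pool 606 were raised at Heat08 hr, of which 504 were raised by at least 1 at Heat24 hr as well, 69 had a Heat24 hr value from 0.5 to 1, 1 was at or below -0.5, and 32 were the members. The rule would have kept up to 150 genes, so every gene that met it is included.

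Plants answer heat within minutes by releasing heat shock factors, transcription factors that switch on genes for chaperones, the proteins that hold and refold unfolded proteins. Many of these transcripts peak early and decline while the heat lasts, and others are sustained. In this series the heat times also differ in time of day, so they cannot by themselves separate an early from a sustained response. Heat also changes RNA splicing, chromatin and the turnover of damaged cell contents by autophagy, in which small ubiquitin-like ATG8 proteins are coupled to the membrane that encloses the cargo.

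The plants were wild-type Col-0, grown on agar at 22 °C in cycles of 16 h light and 8 h dark. The labels name leaf as the tissue, and the methods of the study name aerial parts. Heat08 hr (18 days old) and Heat24 hr (19 days) were sampled during 1 heat treatment of 24 h at 38 °C, and Recovery08 hr (19 days) and Recovery24 hr (20 days) after the return to 22 °C, with 3 arrays each. Control08 hr held 6 arrays from plants of 18 and 19 days, and Control24 hr held 9 arrays from plants of 18, 19 and 20 days, all kept at 22 °C. The groups named 08 hr were harvested 11 h after the onset of light and those named 24 hr at 3 h, so the length of the heat and the time of day changed together and cannot be told apart. Replicates are biological replicates by their labels.

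Some features of the whole series touch the values below. The linear MAS5 signals share nearly 1 trimmed mean over all arrays. Their median was 128.1 to 133.6 on the arrays of Heat08 hr, 119.8 to 130.6 on those of Heat24 hr and 162.0 to 175.9 in the controls. Replicate 3 of Recovery08 hr stood apart from its partners, with an SD of log2 differences of 0.623 and 0.716 against 0.36 between replicates 1 and 2. Of the marker genes looked up for the labelled tissue, 8 of 37 had a probe set with 1 gene. LHCB4.1, RCA and SBPASE, which serve photosynthesis in leaf cells, had signals of at least 1619 on every array. Their levels were not constant. SBPASE had a mean of 22560 in Control24 hr and 1658 at Heat24 hr (log2 change -3.75), where RCA changed by -0.87 and LHCB4.1 by -0.52. The epidermis gene FDH changed by -2.68 at Heat24 hr and the guard cell gene FAMA by 0.44. The meristem genes WUS and CLV3 were between 1.0 and 27.9. The root gene PYK10 ranged from 664.3 to 1524 on the control arrays of 24 hr and from 42.3 to 84.2 at Heat24 hr. The part of such other cells in the members' values was not tested, and in bulk tissue fewer cells of a type cannot be told from less RNA per cell. The 4 heat shock chaperones with a probe set were raised in both heat groups and at Recovery08 hr, as was HSFA2, a heat shock factor.

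The members were 32 different genes, of which 5 carried a symbol beyond their locus code. ATG8E is one of the ATG8 proteins of autophagy. CFM3B belongs to the CRM family, whose RNA-binding domain serves the splicing of organelle introns. bZIP44 is a transcription factor with a basic leucine zipper. UBA1A is an RNA-binding protein that associates with UBP1, and RBL (RbBP5-like) is a subunit of complexes that methylate histone H3. The other 27 were listed by locus code alone and are given here without a role. They lay on all nuclear chromosomes, with 6, 5, 6, 6 and 9 members on chromosomes 1 to 5. No member was the next protein-coding gene to another in the RefSeq annotation (TAIR10.1), and the closest, AT3G14750 and AT3G14920, had 15 protein-coding genes between them.

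**Figure D1:**
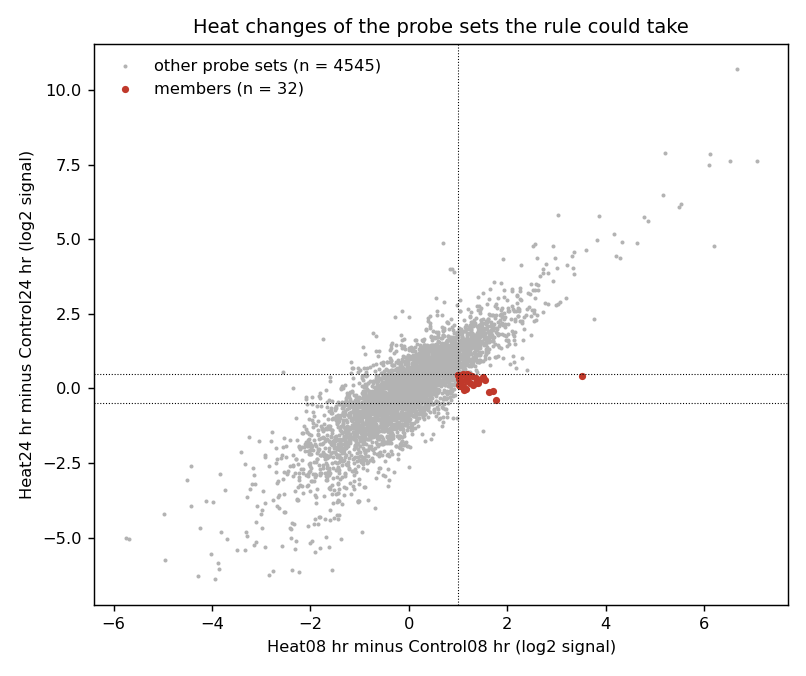
Each point is 1 of the 4577 probe sets past the limits on signal and controls, with the log2 change at Heat08 hr on the x axis and that at Heat24 hr on the y axis, both against the control of the same hour. Dotted lines mark 1 on the x axis and 0.5 to either side of 0 on the y axis. The 32 members (red) lie to the right of the first line and between the other lines, and AT4G21870 lies far from the rest at 3.53.

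The following values chose the members and are given as a description. The change at Heat08 hr ran from 1.0 to 3.53 on the log2 scale with a median of 1.18, and SEs between 0.069 and 0.283. Only 6 members reached 1.5 and 1 of them reached 2. On every one of the 32 probe sets the 3 Heat08 hr arrays lay above the 6 control arrays. At Heat24 hr the members ran from -0.38 to 0.49 with a median of 0.285, and 27 were above 0. In 7 members (AT4G21870, AT5G01670, AT1G64680, AT5G04810, AT2G38800, AT5G40530 and AT5G23340) all 3 Heat24 hr arrays still lay above the 9 control arrays. With no fold threshold 12 members (37.5%) were higher at Heat24 hr by limma, where 24.4% of all probe sets were higher and 33.4% lower. Over the whole table limma, at an adjusted p under 0.05 and a change of at least 2-fold, called 8.38% of probe sets higher and 16.3% lower at Heat08 hr. At Heat24 hr the shares were 13.9% and 22.4%. Since the members were selected on these contrasts, their counts are not read against those shares.

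The limits of the rule cut through closely spaced values. On the Heat08 hr change AT5G23340 (1.0), AT5G40530 (1.01) and AT2G32580 (1.02) were just inside, and AT1G56180 (0.99), AT1G35510 (0.98) and AT1G13910 (0.95) just outside. On the Heat24 hr change AT4G14190 (0.49), AT1G64680 (0.485) and AT5G01670 (0.47) were just inside, and AT1G45170 (0.51), AT1G33250 (0.525) and AT4G20350 (0.53) just outside. The limit on signal, taken as the highest group mean of log2 signal, was met narrowly by AT3G10810 (8.00), AT5G23690 (8.10) and AT5G62030 (8.18) and missed by AT1G70180 (7.94), AT4G23410 (7.89) and AT4G10270 (7.72). That limit alone left out 75 genes. The limit on the controls, on the difference Control08 hr minus Control24 hr, was met narrowly by AT5G60670 (-0.475), AT1G03020 (-0.47) and ATG8E (-0.45), and missed by AT1G67860 (-0.53), AT4G38980 (-0.565) and AT5G59400 (-0.615). It alone left out 41 genes.

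Membership also depended on how the arrays were scaled. When each array was shifted to a common median, the Heat08 hr change had a median of 0.25 over all probe sets in place of -0.13, and the Heat24 hr change one of 0.19 in place of -0.22. The rule then found 41 genes, of which 6 were among the 32, because 25 of the 26 lost members came to 0.5 or more at Heat24 hr. Quantile normalization gave 25 genes with 16 shared, and an added signal of 16 before log2 gave 30 with 27 shared. Controls of the same age alone gave 34 with 26 shared. AT1G19715, AT1G15180, AT4G01410 and UBA1A met the rule under all 4 scalings. Whether the members returned to the control level or stayed somewhat above it at 24 h thus rests on the scaling. A Heat08 hr change larger than the Heat24 hr change is fixed by the rule. The median of that difference was 0.999 as deposited and 0.942 to 0.955 under the other scalings, from which nothing is read.

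AT4G21870 had the largest change at Heat08 hr. Its signals were 2563, 2995 and 2449 at Heat08 hr against 161.9 to 334.8 (median 226.9) on the 6 control arrays, an 11.5-fold difference. At Heat24 hr the signals were 388.4, 432.7 and 434.2, all above the 250.9 to 364.0 (median 314.1) of the 9 control arrays, a log2 change of 0.41 (SE 0.12). The gene was thus far lower than at Heat08 hr but had not come back into the range of the control. With the arrays at a common median its Heat24 hr change was 0.83. At Recovery08 hr it measured 127.7, 135.4 and 272.0, which overlapped the control (limma log2 change -0.46, SE 0.29, adjusted p = 0.2245).

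AT1G03020 changed by 1.78 (SE 0.23) at Heat08 hr, with signals of 337.3, 332.2 and 359.7 against 66.3 to 134.6 (median 110.5) in the control. Its Heat24 hr signals of 74.2, 107.8 and 150.8 overlapped the control range of 107.9 to 190.8 (median 125.3) on 1 array and lay under it on the others, and its log2 change of -0.38 (SE 0.23) was the lowest of the members. AT1G19715 measured 2666, 2514 and 2611 at Heat08 hr against 594.1 to 1040 (median 804.8), a 3.28-fold difference. At Heat24 hr the same gene measured 870.6, 904.2 and 883.2, within the control range of 756.0 to 1064. Both genes were therefore as low as or lower than their control after 24 h by the values as deposited.

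Of the 5 members with a symbol, ATG8E had the largest rise. It measured 1492, 1248 and 1244 at Heat08 hr against 355.2 to 508.7 (median 429.9) in the control, a 3.10-fold difference. At Heat24 hr it measured 611.7, 633.9 and 406.7 against 458.5 to 726.5 (median 579.0), so that these groups overlapped. CFM3B measured 1205, 1086 and 1091 at Heat08 hr against 326.1 to 472.7 (median 443.0), and 489.6, 436.6 and 555.5 at Heat24 hr against 386.1 to 476.9 (median 425.5). Of its 3 arrays at Heat24 hr, 1 lay in the control range and the others above it.

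The transcription factor bZIP44 measured 426.3, 430.6 and 442.7 at Heat08 hr against 159.8 to 221.1 (median 179.3). At Heat24 hr it measured 340.1, 247.4 and 339.2 against 164.5 to 261.6 (median 225.5), and its change of 0.47 (SE 0.14) was close to the limit of the rule. UBA1A measured 696.7, 713.2 and 758.4 at Heat08 hr against 272.6 to 382.3 (median 358.2). Its Heat24 hr arrays, at 439.4, 468.6 and 397.8, lay within the control range of 371.0 to 493.5. RBL measured 610.5, 678.5 and 586.9 at Heat08 hr against 241.6 to 357.0 (median 308.2), and its Heat24 hr signals of 267.7, 355.2 and 257.5 overlapped the 191.6 to 304.0 of the control.

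AT5G60670 had Heat08 hr signals of 10320, 8747 and 12060 against 3672 to 4442 (median 4001) in the control. Its Control24 hr arrays were higher than its Control08 hr arrays, at 4894 to 6532 (median 5487), and its Heat24 hr arrays were at 6398, 6235 and 8750. A lower Control08 hr than Control24 hr mean was found for 28 of the 32 members (87.5%), against 47.56% of the pool. The difference between both controls ran from -0.475 to 0.31 with a median of -0.30 in the members and 0.016 in the pool. The limit on the controls belongs to the rule, and a low Control08 hr mean raises the Heat08 hr change by construction. The ages within a control differed little for most members, with a median absolute log2 difference between 0.086 and 0.108. The largest were 0.59 for AT1G03020 in Control08 hr and 0.72 for AT4G36050 in Control24 hr.

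One member rested on arrays that disagreed at Heat08 hr. AT1G15180 measured 1183, 1157 and 620.2 there against 386.6 to 460.2 (median 432.4) in the control, so that replicate 3 lay between the control and the other replicates. The median SD of log2 signal over the members was 0.145 and 0.139 in the early and late heat groups, 0.22 and 0.204 in the early and late recovery groups, and 0.174 and 0.197 in the controls.

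**Figure D2:**
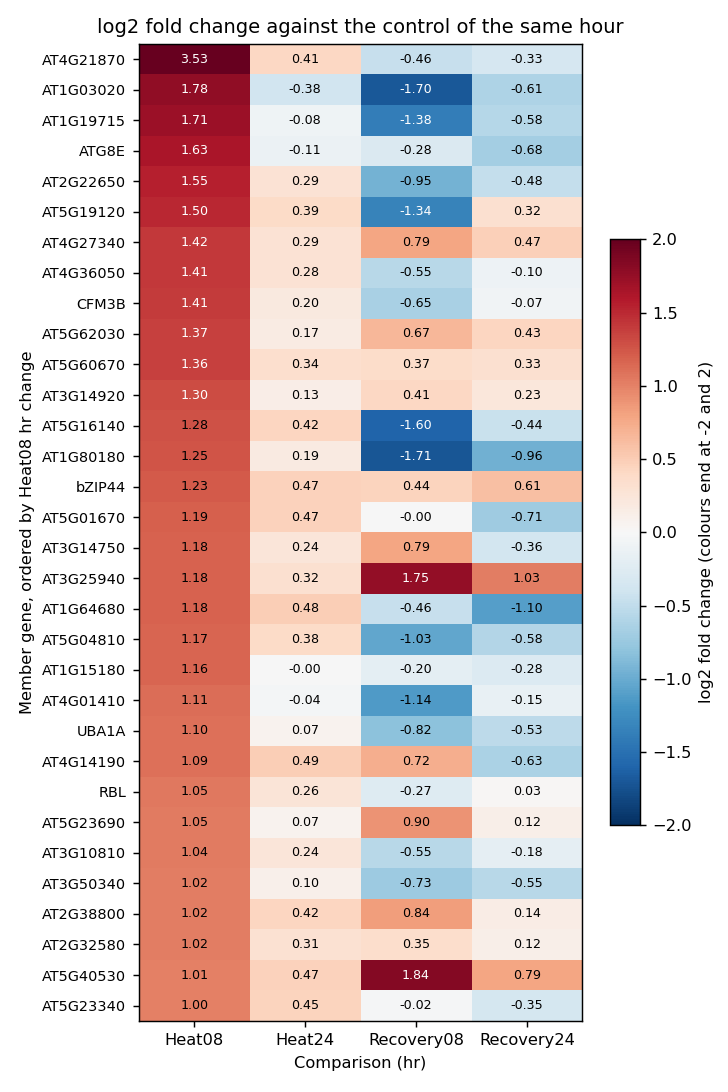
Colour map of the log2 fold change of each of the 32 members (rows, ordered by the Heat08 hr change) against the control of the same hour, with 1 column for each of the 4 treated groups. Red marks higher and blue lower values than the control, and colours end at -2 and 2. The Heat24 hr column is pale throughout, and the Recovery08 hr column runs from -1.71 (AT1G80180) to 1.84 (AT5G40530).

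The recovery arrays were not used to choose the members, other than in the highest group mean, and ask what these genes did once the heat had ended. The comparisons share their control arrays with the Heat08 hr and Heat24 hr changes of the rule. At Recovery08 hr the members' log2 changes ran from -1.71 to 1.84, with 12 above and 20 below 0. By limma 7 of 32 were lower (21.9%) and 2 were higher (6.25%), while over all probe sets the shares were 17.1% and 14.0%. The median change of the members was -0.27, and that of all probe sets was -0.085. With no fold threshold 14 were lower (43.75%) and 8 higher (25%), against 26.2% of all probe sets in either direction.

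Genes raised at other times stood elsewhere in these values. Among the 504 genes raised in both heat groups, 258 were higher and 5 lower at Recovery08 hr, with a median of 1.03. Among the 159 genes raised at Heat24 hr with a Heat08 hr change under 0.5, 61 were higher and 0 lower by limma (3 lower at an adjusted p under 0.05 with no fold threshold), with a median of 0.80. These sets were cut by the same kind of rule and share the control arrays with the members, and no test of the difference between the sets was made.

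**Figure D3:**
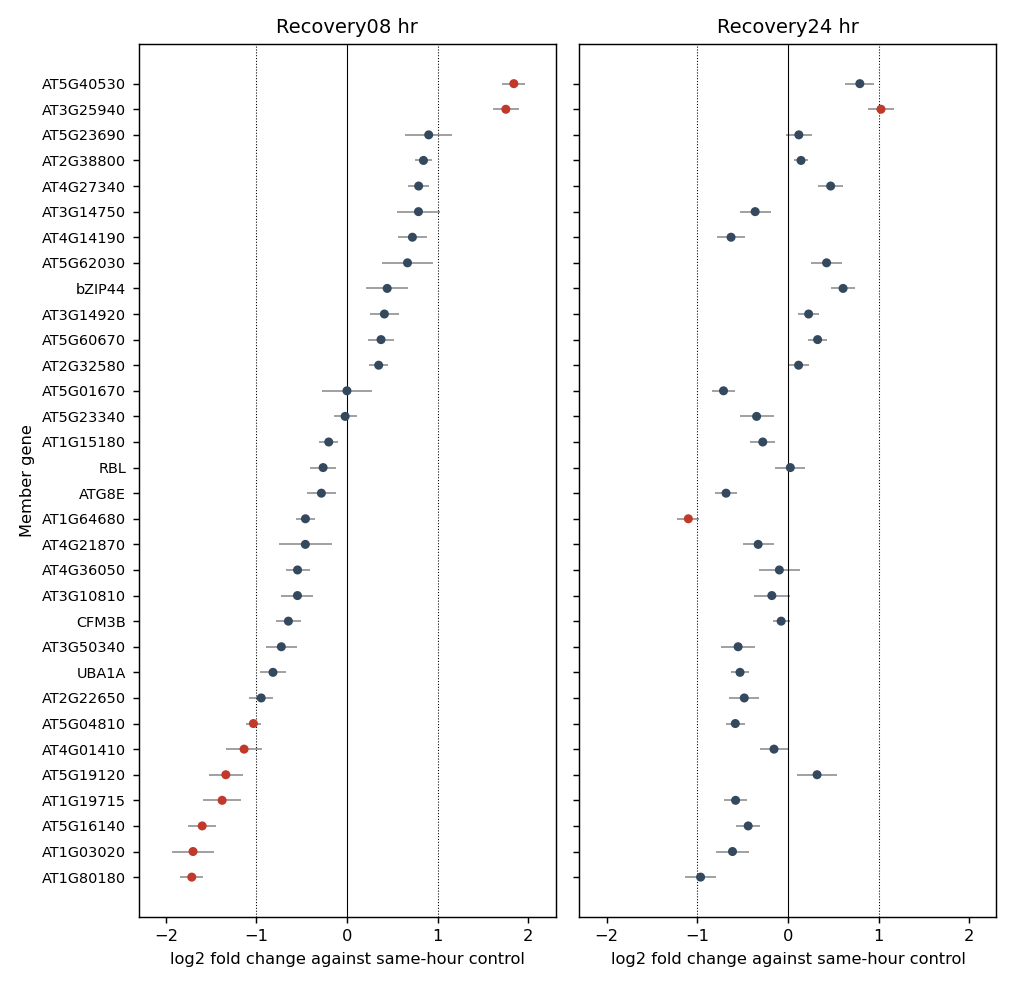
Log2 fold change (x axis) of each member (y axis, ordered by the Recovery08 hr change) at Recovery08 hr (left) and Recovery24 hr (right) against the control of the same hour, with bars for the SE of the limma fit. Red points passed an adjusted p of 0.05 with at least 2-fold, which is marked by dotted lines. At Recovery08 hr 7 members lie at the low and 2 at the high end, and at Recovery24 hr 1 member is red on each side.

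The members called lower at Recovery08 hr are by the definition of the call at least 2-fold under their control, and their values follow. AT1G80180 measured 345.3, 315.4 and 457.2 against 1094 to 1280 (median 1213) in the control, with no overlap. It was 3.28-fold lower (limma log2 change -1.71, SE 0.13, adjusted p = 1.064e-05), after signals of 2873, 2357 and 3505 at Heat08 hr. AT1G03020 measured 30.5, 33.5 and 28.7 against 66.3 to 134.6 in the control and was 3.25-fold lower (log2 change -1.70, SE 0.24, limma adjusted p = 0.0003516). The same gene had thus been above every control array at Heat08 hr and was under every control array at Recovery08 hr. At Heat24 hr, still in the heat, it was already no longer above its control range.

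AT5G16140 measured 181.8, 173.3 and 267.4 at Recovery08 hr against 562.2 to 688.7 (median 602.5), a 3.03-fold decrease (limma log2 change -1.60, SE 0.15, adjusted p = 4.09e-05). Its Heat08 hr signals had been 1439, 1588 and 1469. AT1G19715 measured 247.8, 287.6 and 396.9 against 594.1 to 1040, a 2.60-fold decrease (limma log2 change -1.38, SE 0.21, adjusted p = 0.0005363). In both genes replicate 3 was the highest of the recovery arrays and still lay under every control array.

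AT5G19120 measured 216.0, 162.6 and 309.2 at Recovery08 hr against 485.0 to 616.3 (median 567.0), a 2.53-fold decrease (limma log2 change -1.34, SE 0.19, adjusted p = 0.0004031). These 5 genes were called lower under all 16 alternatives tried. The other members called lower were nearer to 2-fold. AT5G04810 measured 659.7, 676.5 and 639.1 against 1283 to 1390 (median 1369), with a log2 change of -1.03 (SE 0.081, limma adjusted p = 1.36e-05). Its change was -0.99, under 2-fold, against the 19-day controls alone. AT4G01410 measured 66.1, 63.8 and 112.3 against 147.1 to 208.9 (median 165.3), with a log2 change of -1.14 (SE 0.20, limma adjusted p = 0.0015). That change fell to -0.99 without replicate 2 of Recovery08 hr, or with 16 added to the signal.

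Both members that were higher at Recovery08 hr had a larger change there than at Heat08 hr. AT3G25940 measured 1296, 1205 and 1635 at Recovery08 hr against 337.9 to 471.9 (median 405.6) in the control, a 3.37-fold increase (limma log2 change 1.75, SE 0.14, adjusted p = 1.696e-05). At Heat08 hr the same gene measured 958.4, 851.9 and 948.3. AT5G40530 measured 980.9, 966.7 and 756.7 at Recovery08 hr against 218.9 to 285.0 (median 254.9), a 3.58-fold increase (limma log2 change 1.84, SE 0.13, adjusted p = 7.233e-06). Its Heat08 hr signals were 449.0, 503.6 and 562.0. In both genes the Recovery08 hr arrays lay above all Heat08 hr arrays. Both calls held under all 16 alternatives. For these genes the description as raised by early heat alone does not hold, nor does it for 6 further members that were higher at Recovery08 hr by less than 2-fold. At an adjusted p under 0.05 with no fold threshold, 5 members (15.6%) were also higher at Recovery24 hr, where 18.1% of all probe sets were higher. The 12 members (37.5%) higher at Heat24 hr overlap with these groups. That contrast was used by the rule, so their count is a description. It is not read against the 24.4% of all probe sets that were higher there. Heat08 hr had the highest mean of the 6 groups in 30 members. The rule itself places Heat08 hr above both controls and Heat24 hr, so only the recovery groups could have been higher.

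Between these ends, further members changed by less than 2-fold at Recovery08 hr. AT2G22650 measured 151.7, 142.7 and 198.0 against 284.8 to 347.0 (median 319.2), a log2 change of -0.95 (SE 0.13, limma adjusted p = 0.0003175) that passed the adjusted p but not the fold. UBA1A, at 195.2, 169.0 and 212.9, was under every control array as well, with a log2 change of -0.82 (SE 0.15, limma adjusted p = 0.001493). CFM3B measured 287.0, 252.8 and 275.2, all under its control range, with a log2 change of -0.65 (SE 0.13, limma adjusted p = 0.003477). AT3G50340 (-0.73), AT3G10810 (-0.55), AT4G36050 (-0.55) and AT1G64680 (-0.46) passed the adjusted p on the same side. On the other side AT5G23690 (0.90), AT2G38800 (0.84), AT4G27340 (0.79), AT3G14750 (0.79), AT4G14190 (0.72) and AT2G32580 (0.35) did so.

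The remaining members did not pass the adjusted p at Recovery08 hr. They were AT5G62030 (0.67), bZIP44 (0.44), AT3G14920 (0.41), AT5G60670 (0.37), AT5G01670 (-0.002), AT5G23340 (-0.02), AT1G15180 (-0.20), RBL (-0.265), ATG8E (-0.28) and AT4G21870 (-0.46). Their log2 changes had SEs from 0.10 to 0.29. The 3 arrays of AT5G01670 were far apart, at 268.4, 349.9 and 146.5.

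**Figure D4:**
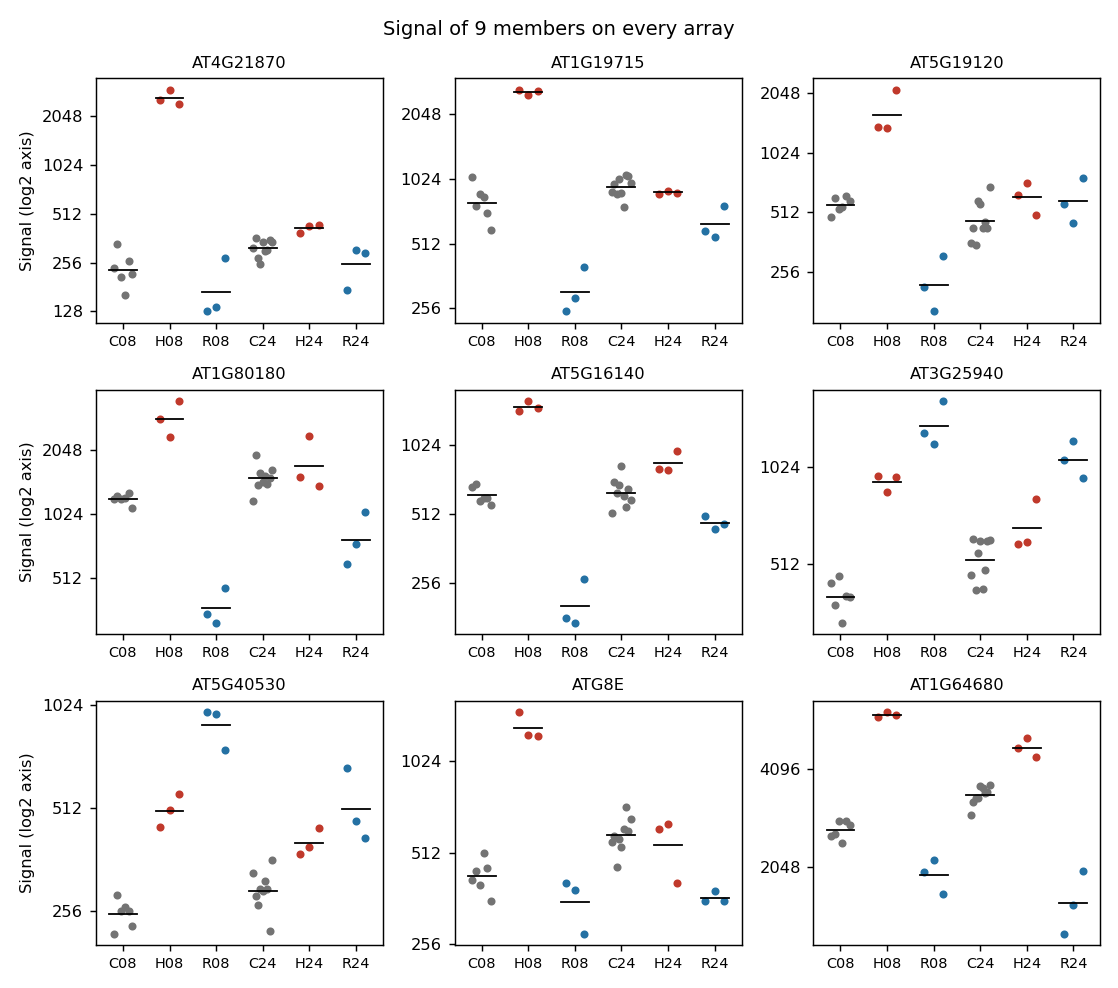
Signal on every array (points, log2 axis) and the geometric mean of each group (line) for 9 members, in Control08 hr (C08, 6 arrays), Heat08 hr (H08), Recovery08 hr (R08), Control24 hr (C24, 9 arrays), Heat24 hr (H24) and Recovery24 hr (R24), with 3 arrays in each treated group. AT1G19715, AT5G19120, AT1G80180 and AT5G16140 lie above the control at Heat08 hr and under it at Recovery08 hr. AT3G25940 and AT5G40530 are highest at Recovery08 hr, with means of log2 signal 1.75 and 1.84 above the control.

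At Recovery24 hr most of these differences had become smaller. The members' log2 changes ran from -1.10 to 1.03 with a median of -0.23, against -0.074 over all probe sets. By limma 1 of 32 was higher and 1 was lower (3.125% each), against 6.2% and 7.36% of all probe sets. With no fold threshold 5 were higher (15.6%) and 12 lower (37.5%), against 18.1% and 18.4% of all probe sets.

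AT3G25940 was the member called higher at Recovery24 hr. It measured 1074, 1224 and 945.9 against 427.1 to 613.0 (median 554.8), a 2.04-fold increase without overlap (limma log2 change 1.03, SE 0.15, adjusted p = 0.0002174). The fold lay close to the limit, and the call was lost in 6 of 19 alternatives, where the change was between 0.93 and 0.99. These were the age-matched controls, both other normalizations, and leaving out replicate 2 of Recovery24 hr or replicate 3 of the Control24 hr plants of 18 or of 19 days. AT1G64680 was called lower, with 1279, 1569 and 1999 against 2968 to 3667 (median 3458), a 2.14-fold decrease (limma log2 change -1.10, SE 0.12, adjusted p = 3.575e-05). Its change was -0.94 without replicate 1 of Recovery24 hr. This gene had been at 5896, 6135 and 5993 at Heat08 hr, above its control range of 2436 to 2836.

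ATG8E measured 354.1, 382.4 and 355.3 at Recovery24 hr, all under its control range of 458.5 to 726.5, with a log2 change of -0.68 (SE 0.12, limma adjusted p = 0.0009985) that was under 2-fold. AT1G80180 was still under every control array at 598.0, 741.5 and 1044 against 1181 to 1935 (median 1521), with a log2 change of -0.96 (SE 0.17, limma adjusted p = 0.0008598). bZIP44 measured 357.2, 302.7 and 353.7 against 164.5 to 261.6 and was higher by 0.61 (SE 0.13, limma adjusted p = 0.003218), again under 2-fold. AT5G40530, 3.58-fold higher at Recovery08 hr, was at 670.2, 468.1 and 417.1 against 222.5 to 361.0 (log2 change 0.79, SE 0.16, limma adjusted p = 0.002271). RBL, at 234.8, 201.9 and 318.9, overlapped its control (log2 change 0.03, SE 0.17, limma adjusted p = 0.9237).

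Whether early and late recovery differed was tested as the change at Recovery24 hr minus that at Recovery08 hr in 1 fit. Between these groups the length of the recovery, the time of day and the age of the plants changed together and cannot be told apart. By limma 3 of 32 members had a positive difference of at least 2-fold and 3 a negative one (9.375% each), while over all probe sets 12.6% were positive and 9.89% negative. With no fold threshold 8 were positive (25%) and 7 negative (21.9%), against 19.7% and 19.4% of all probe sets. The positive ones were low at Recovery08 hr, which favours a positive difference by construction, and lay closer to the control at Recovery24 hr. AT5G19120 went from -1.34 to 0.32, with Recovery24 hr signals of 567.6, 454.0 and 763.1 that overlapped the control range of 349.7 to 688.1 (difference 1.66, SE 0.30, limma adjusted p = 0.0001826). AT5G16140 went from -1.60 to -0.44 (difference 1.16, SE 0.20, limma adjusted p = 8.858e-05) and AT1G03020 from -1.70 to -0.61 (difference 1.09, SE 0.29, limma adjusted p = 0.005629). The last call was lost with 16 added and with quantile normalization, where the lowest difference was 0.71.

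The negative ones were high at Recovery08 hr, which favours a negative difference in the same way. AT4G14190 measured 591.4, 407.8 and 484.2 at Recovery08 hr, above its control range of 244.9 to 371.4. At Recovery24 hr it measured 222.3, 291.5 and 239.3, under its control range of 332.2 to 553.4. Its log2 change thus went from 0.72 to -0.63 (difference -1.35, SE 0.22, limma adjusted p = 6.991e-05), the only called difference that passed from one side of the control to the other with no overlap at either time. AT3G14750 went from 0.79 to -0.36 (difference -1.15, SE 0.29, limma adjusted p = 0.003429), and its Recovery24 hr arrays at 168.3, 179.5 and 120.8 overlapped the control range of 158.1 to 270.5. AT5G40530 went from 1.84 to 0.79 (difference -1.05, SE 0.21, limma adjusted p = 0.0004528). The call for AT3G14750 was lost without replicate 3 of Recovery24 hr, and that for AT5G40530 without replicate 1 or 2 of Recovery08 hr or replicate 2 or 3 of Recovery24 hr.

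The ATG8 genes give a view of 1 member beside its own family. Of 21 autophagy genes looked up, 11 had a probe set with 1 gene, and 9 of these encode ATG8 proteins. ATG8A, ATG8B, ATG8H and ATG8I were higher by limma in both heat groups, with log2 changes between 1.24 and 1.89 at Heat08 hr and between 1.36 and 2.16 at Heat24 hr. ATG8E had a change of similar size at Heat08 hr (1.63) and one of -0.11 (SE 0.15) at Heat24 hr. ATG8D went the other way, with 774.4 to 914.7 at Heat08 hr overlapping its control of 738.3 to 863.9, and 2018 to 2700 at Heat24 hr against 236.4 to 314.6. Its log2 change was 0.08 (SE 0.086, limma adjusted p = 0.5166) at Heat08 hr and 3.17 (SE 0.11, adjusted p = 3.227e-10) at Heat24 hr.

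ATG8F was lower at Heat24 hr, with a log2 change of -1.64 (SE 0.11, limma adjusted p = 1.079e-07). ATG8C changed by 0.61 and 0.86 and ATG8G by -0.82 and -0.07 at Heat08 hr and Heat24 hr, all under 2-fold. With the arrays at a common median the Heat24 hr change of ATG8E was 0.30. That shift adds the same amount to each gene, and the values of ATG8G at Heat24 hr and ATG8F at Heat08 hr then lie above 0 as well. At Recovery08 hr ATG8A, ATG8B, ATG8G and ATG8H were higher, with log2 changes of 1.5, 2.94, 1.56 and 1.82, ATG8F was lower at -1.10, and ATG8E was at -0.28. ATG8D alone of the list was called at Recovery24 hr, at 1.11. In all, 5 of 11 autophagy genes, ATG8E among them, were higher at Heat08 hr, and 5 were higher and 1 lower at Heat24 hr, with medians of 0.61 and 0.86. Of all probe sets 8.38% were higher at Heat08 hr, and 13.9% were higher and 22.4% lower at Heat24 hr. ATG8E was selected on these contrasts and is no independent part of the count. Whether the probe set of one ATG8 gene also detects another was not tested.

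**Figure D5:**
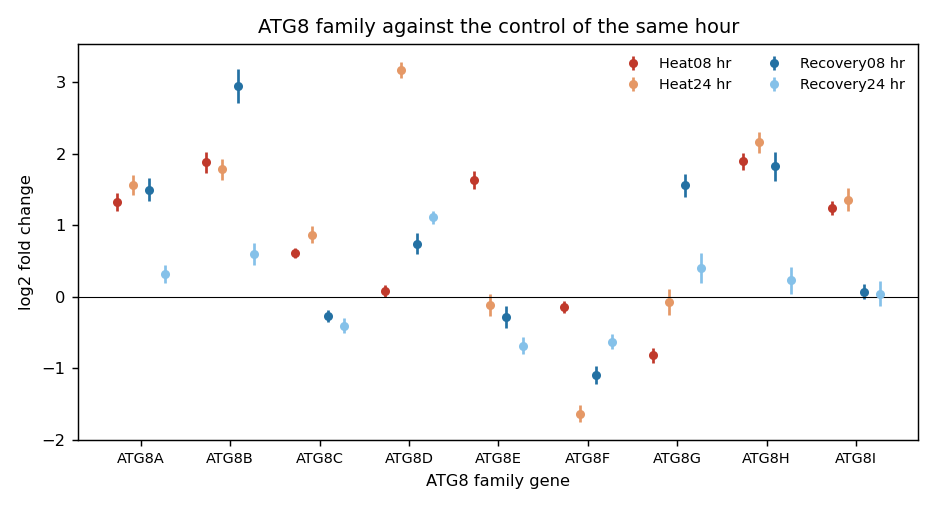
Log2 fold change (y axis) of the 9 ATG8 genes (x axis) against the control of the same hour, in 1 colour for each treated group, with bars for the SE of the limma fit. ATG8E is high at Heat08 hr (1.63) and under 0 in the other groups by the values as deposited (0.30 at Heat24 hr with the arrays at a common median), while ATG8D is near 0 at Heat08 hr (0.08) and high at Heat24 hr (3.17).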

How the data were processed

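RNA of aerial parts, labelled as leaf, was hybridised to 27 ATH1 arrays of 1 colour, and groups were taken from the sample labels. The intensity values were deposited by the authors as linear MAS5 signals of 22746 probe sets (GeneSpring version 12 is named in the methods). The lowest value, 1, is held by 3685 entries. Group means of log2 signal were formed from them for the rule. Log2 signals were compared with limma 3.58.1 in R 4.3.3 (lmFit and eBayes) over all probe sets, fitting the groups of each comparison by themselves and pooling the ages of a control. The p-values are two-sided, adjusted by Benjamini-Hochberg over all probe sets, and calls needed an adjusted p under 0.05 and at least 2-fold. A log2 change is a difference of log2 means. Other steps used pandas 2.3.3 and numpy 2.4.6 (Python 3.11.15), and the fit was tested on simulated data. The number of arrays limits the precision.

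The platform annotation listed 14016 probe sets, 13513 of them with 1 gene and 503 with several, and the 8730 others were not named here. Locus codes and symbols came from RefSeq (TAIR10.1). Of 9 gene lists looked up, autophagy alone had at least 5 genes with a probe set. The others were heat shock factors and chaperones, protein folding in the ER, sugar starvation, circadian clock, phytochrome-interacting factors, abscisic acid and reactive oxygen. They had 1 to 4 such genes, none of them a member. This covered few of the genes looked up, such as 4 of 20 chaperones and 1 of 15 factors. Whether the 27 members with a locus code alone are of these kinds was not tested. Members were also matched to 13 groups by the text of their symbols and synonyms. The groups of transcription factors and of autophagy held 1 member each. Most members carried a locus code alone, so an empty group does not show that the members lack that class. Promoter and protein sequences were not analysed here.

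The members, lists and tests were chosen with earlier results of these data known. Named members were the 12 highest at Heat08 hr, those called in recovery, those nearest to the limits, the 4 of highest mean signal and those in a list. The other members were named after their values were seen, so that all are accounted for. Alternatives were age-matched controls, 1 fit of all arrays, a replicate block, quantile normalization, median centring, an added 16, a mean signal of at least 100, no fold threshold and leaving out single arrays.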

Additional observations from a re-analysis of the deposited data

Results flagged for a closer look

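Single control arrays lay far from the others of their group for 5 members, out of 64 groups of control arrays tested, and chance flags about 1 in 20. CFM3B was low on replicate 1 of the 18-day Control08 hr plants (326.1 against 423.2 to 472.7). AT5G62030 was low on replicate 3 of the same plants (58.06 against 113.4 to 146.8), and AT1G80180 on replicate 3 of the 19-day Control08 hr plants (1094 against 1210 to 1280). In Control24 hr, bZIP44 was low on replicate 3 of 19 days (164.5 against 208.0 to 261.6) and AT5G23340 on replicate 3 of 20 days (182.3 against 264.3 to 352.4).

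The change at Recovery24 hr minus that at Recovery08 hr passed an adjusted p of 0.05 by limma with at least 2-fold for 6 members. AT1G03020 (1.088), AT5G19120 (1.659) and AT5G16140 (1.16) had a positive difference. AT3G14750 (-1.148), AT4G14190 (-1.348) and AT5G40530 (-1.045) had a negative one.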

How the results depend on the processing

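The counts of members called in recovery kept their size under most alternatives. With no fold threshold they were 8 higher and 14 lower in early recovery, 5 and 12 in late recovery, and 8 and 7 for the difference between both, where 26.2% and 26.2%, 18.1% and 18.4%, and 19.7% and 19.4% of all probe sets were called. The call of AT3G25940 at Recovery24 hr was lost with age-matched controls, median centring and quantile normalization, which left 0 members higher there by limma (log2 change 0.932 to 0.962, under 2-fold, with an adjusted p of at most 0.0239 over all its alternatives). Median centring and quantile normalization gave 2 members lower at Recovery24 hr, by adding AT1G80180 (-1.028 and -1.074). Leaving out single arrays gave 0 to 1 member higher and 0 to 2 lower at Recovery24 hr, and 1 to 4 with a negative difference between early and late recovery (1 without replicate 3 of Recovery24 hr). The other counts stayed between 2 and 3 (higher) and 6 and 8 (lower) at Recovery08 hr. With the replicate block the counts were the same, 2 and 7 in early recovery, 1 and 1 in late recovery, and 3 and 3 for the difference. Same-numbered arrays correlated at 0.023, 0.094 and 0.067 in early and 0.191, -0.11 and 0.195 in late recovery. Arrays of different numbers correlated at -0.094 to 0.046 in early and -0.27 to 0.143 in late recovery. A weak pairing was not excluded, and the numbers were not taken as pairs. Values near 0 changed sign. AT5G01670 at Recovery08 hr was 0.002 with 16 added and 0.021 with median centring (-0.276 to 0.353 when single arrays were left out, with 0.001, 0.054, 0.043 and 0.023 without 1 of 4 control arrays). AT5G23340 there was 0.008 with age-matched controls and 0.001 with median centring (-0.108 to 0.078 when single arrays were left out, with 0.016 and 0.001 without replicate 2 of either control age). RBL at Recovery24 hr was -0.038 with median centring and -0.057 with quantile normalization (-0.158 to 0.172 when single arrays were left out, with -0.002, -0.017 and -0.001 without replicate 3 of the 18-, 19- or 20-day controls). The rule found 30 to 34 members when 1 heat array was left out, of which 27 to 31 were among the 32. The cause of these moves was not tested.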
